A study of Mus musculus with 12 samples.

Results

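H19 and 9 other imprinted genes with known roles in growth (Igf2, Igf2r, Meg3, Dlk1, Cdkn1c, Peg3, Mest, Plagl1 and Grb10) were followed as gene rows in mouse tumors grown with or without blue light. H19 was picked for its lower counts in light than in dark engineered tumors, and the other 9 genes were taken as its imprinted relatives. The 10 genes are 10 of 32288 rows in each count table, and 9 of them had a total count of at least 10 over all libraries and were tested among 18804 genes. Dlk1 was the gene below that limit. Because H19 was chosen on engineered tumors, every H19 difference that includes these tumors is given as a description, with no test.

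The tumors grew from P815, a mouse mastocytoma line, injected under the skin of the back of adult DBA/2 mice. Engineered tumors (P815-IFNG, written P815-IFNγ in the labels) came from 1 clone that carried a light-switchable transcription factor, a transgene under its control that encodes interferon gamma and Cxcl10, and a red fluorescent protein and firefly luciferase reporter. Control tumors (P815-M) came from 1 clone with the reporter alone, so clone and transgene cannot be told apart. From 7 days after injection, the light group of each line received blue light in a cycle of 12 h light and 12 h dark for 6 days and the dark group received none. Each of the 4 groups held 3 mice with 1 library each. Whole tumors were sequenced, so in every value below fewer cells of a type and less RNA per cell cannot be told apart.

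In imprinted genes, the copy from one parent is silenced, so that expression comes mainly from the other parental copy. The maternally expressed H19 long noncoding RNA and the paternally expressed growth factor Igf2 share an imprinted domain, and Igf2r takes the Igf2 protein up for degradation. H19 is abundant in the embryo and falls to low levels after birth in most tissues, with skeletal muscle among those that keep it. Meg3, a noncoding RNA, and Dlk1, a membrane protein that restrains differentiation, form a similar pair. Cdkn1c and Grb10 hold back growth, through the cell cycle and through insulin and IGF receptors, while Plagl1 is a zinc finger factor that restrains proliferation. Peg3 is a zinc finger protein expressed from the paternal copy in embryo, brain and muscle, and Mest is a paternally expressed hydrolase-like protein of mesodermal tissues.

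The mouse genome build of the files was mm10 (GRCm38), and positions below are from its GENCODE annotation. H19 lies on chromosome 7 at 142575529 to 142578143 on the minus strand, and Igf2 lies on the same strand at 142650766 to 142666816. Cdkn1c lies further along chromosome 7 at 143458339 to 143461050. Meg3 (109541001 to 109571726) and Dlk1 (109452823 to 109463336) are neighbours on the plus strand of chromosome 12. H19 and Meg3 hold microRNAs in their exons, and Igf2 and Mest hold them in introns. Mature sequences of these microRNAs are shown from RefSeq (GRCm38.p6) as short RNAs that the host genes hold, and they were not measured here. Capitals mark the seed, bases 2 to 8, and no 2 of the sequences share one.
mmu-miR-675-5p: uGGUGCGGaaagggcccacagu
mmu-miR-675-3p: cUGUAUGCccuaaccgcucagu
mmu-miR-483-5p: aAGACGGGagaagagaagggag
mmu-miR-335-5p: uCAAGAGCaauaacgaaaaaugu
mmu-miR-770-5p: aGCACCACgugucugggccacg
The 2 arms of miR-675 lie in an H19 exon at chr7:142577112-142577133 and chr7:142577078-142577099. miR-483 lies in an Igf2 intron, miR-335 in a Mest intron and miR-770 in a Meg3 exon.

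RefSeq promoter windows of 300 bases were found for 8 of the 10 genes. The Meg3 window, chr12:109540746-109541045 on the plus strand, is printed because Meg3 had its libraries apart between the lines in both light and dark.
Meg3 promoter: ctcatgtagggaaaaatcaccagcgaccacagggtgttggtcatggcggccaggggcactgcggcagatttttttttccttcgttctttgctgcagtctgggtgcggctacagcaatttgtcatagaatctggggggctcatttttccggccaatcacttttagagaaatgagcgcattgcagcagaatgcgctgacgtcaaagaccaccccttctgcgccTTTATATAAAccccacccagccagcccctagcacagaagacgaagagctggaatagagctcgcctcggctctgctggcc
Capitals mark 2 overlapping matches of TATAAA. The motifs searched, on both strands, were TATAAA, found in 13.6% of 32851 windows of the same length, CAGCTG (16.3%), GGGCGG (35.7%) and GCCATNTTG (2.51%), and the last 3 had no match here. Of the 15 windows of these genes only this one held TATAAA.

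Libraries of 2 kinds were present. The totals of 10 libraries lay between 2211234 and 2946792 counts, while P815-IFNG light 3 and P815-IFNG dark 3 had 41473500 and 42338096. The 10 libraries also gave 29.0 to 47.9% of their mitochondrial mRNA counts to mt-Nd6, the mitochondrial mRNA gene on the opposite DNA strand from the others, against 3.56% and 3.85% in the deep pair. The labels name 1 strand-preserving kit, in which the first read is complementary to the RNA, and the methods give HTSeq default settings, which assign a read to a gene on the strand of the first read. Counts made in this way fall on the strand opposite to the transcript. The mt-Nd6 share was high in the 10 libraries and low in the deep pair, and no source used here gives a setting for each library, so the gene rows of the 10 libraries may hold reads from the strand opposite to the named gene, and their values are levels of a row rather than of a transcript. Cpa3, the most abundant mast cell marker listed, stood at 675 to 1099 CPM (counts scaled to library size with trimmed mean of M-values factors) in the 10 libraries and at 5466 and 7565 CPM in the deep pair. The Cpa3 row was thus filled in both kinds of library. Since a row of the 10 may hold reads of the opposite strand, it does not by itself show the labelled mast cell lineage there. A count of 3, taken as the floor of detection, equals 0.930 to 1.56 CPM in the 10 libraries and 0.0669 to 0.0694 CPM in the deep pair. For comparisons that include P815-IFNG tumors, the fold change over the 10 libraries is given beside that over all 12. For P815-M, which has no deep library, the 2 values differed by at most 0.28 on the log2 scale for the members.

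Several of the imprinted genes overlap a gene on the opposite strand, and their rows have to be read with that of the partner. A total of 625 exon bases of Cdkn1c, 30.7% of its exon length, are shared with the antisense gene Gm44732. Gm44732 had 9.75 to 58.5 CPM in the 10 libraries but 0.116 and 0.201 CPM in the deep pair, while Cdkn1c had 0 to 12.1 CPM in the 10 libraries and 1.67 and 2.16 CPM in the deep pair. Gm44732 thus exceeded Cdkn1c in each of the 10 libraries and Cdkn1c exceeded Gm44732 in both deep libraries. Mest shares 912 exon bases, 23.1% of its exon length, with Copg2 on the other strand. It had 27.6 to 47.8 CPM in the 10 libraries and 3.39 and 3.82 CPM in the deep pair, a mean 9.85 times higher in the former, while mean Copg2 was 1.29 times higher there. Igf2 shares 98 bases with Igf2os on the opposite strand, which reached at most 2 counts, and 3596 bases, 62.8% of its exon length, with Gm49394 on the same strand, which has no row in the files. Meg3 shares 1228 bases, 6.79% of its exon length, with Gm26906 on the opposite strand, also without a row. H19 shares 71 and 70 exon bases with Gm27483 and Gm27786 on the opposite strand, and Plagl1 shares 38 with Gm27741, all without a row. The exons of Igf2r, Dlk1, Peg3 and Grb10 overlap no annotated exon of another gene. Only annotated exons were compared, so unspliced transcripts that cross these genes were not searched for. The part of strand counting in the differences between groups was not tested.

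**Figure D1:**
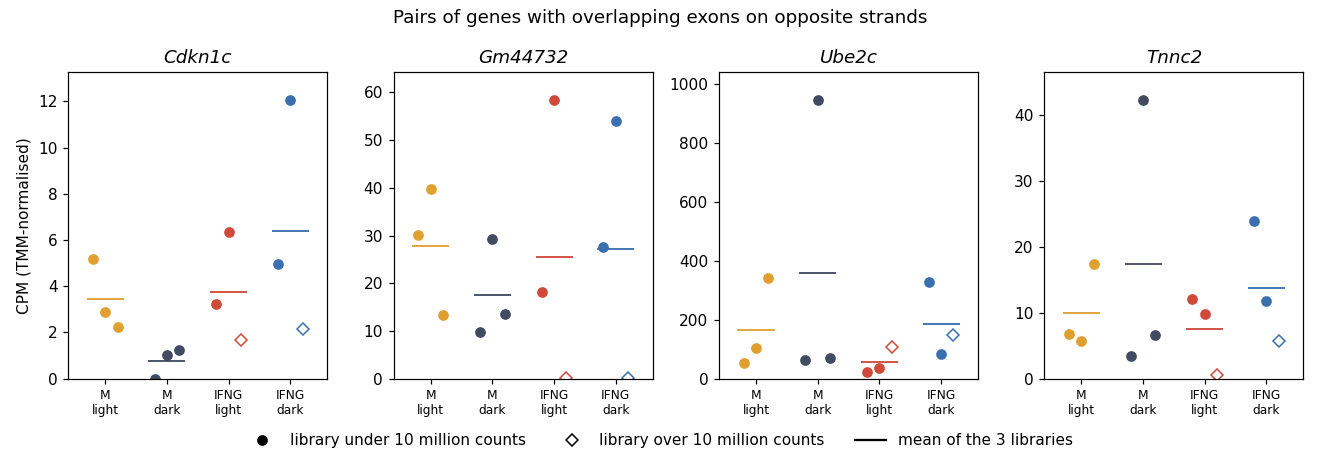
CPM of Cdkn1c and its antisense neighbour Gm44732, and of Ube2c and its opposite-strand neighbour Tnnc2, in the 4 groups of 3 libraries (M, P815-M; IFNG, P815-IFNG). Filled circles are the 10 libraries of under 10000000 counts, open diamonds are the deep pair and lines are group means; Gm44732 lay between 9.75 and 58.5 CPM in the 10 libraries and at 0.116 and 0.201 CPM in the deep pair.

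H19 was low in most tumors and high in a few, in every group except light P815-IFNG. In light P815-IFNG tumors it stood at 1.61, 0.487 and 1.71 CPM (4, 1 and 74 counts), and in dark P815-IFNG tumors at 26.4, 5.03 and 6.87 CPM (85, 15 and 308 counts), where the third value of each is the deep library. The light values were low throughout and the groups did not overlap. That separation is what the gene was picked for: of all genes tested, 2.78% had all light libraries below all dark libraries in this line and 0.979% had them all above. Group means were 1.27 ± 0.679 CPM in light and 12.8 ± 11.8 CPM in dark (SD, n = 3 each), the fitted log2 difference of light minus dark was -3.19 with a standard error of 1.40, and it was -3.79 over the 10 libraries alone. Within the deep pair, which holds 1 library a group and allows no test, the dark library had 4.01 times the CPM of the light library.

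In control tumors, whose libraries had no part in the choice of H19, the light values were 1.04, 2.39 and 21.5 CPM (2, 5 and 48 counts) and the dark values were 1.95, 41.2 and 1.65 CPM (5, 79 and 4 counts). One library stood high in each group and the groups overlapped. The means were 8.30 ± 11.4 CPM in light and 14.9 ± 22.8 CPM in dark (SD, n = 3 each), with a log2 difference of -0.82 (standard error 1.28) and p = 0.7 in a two-sided exact permutation test, where 3 against 3 libraries allow no p below 0.1. Without P815-M dark 2 the log2 difference was 2.21, so its direction rested on that library. The order of the group means was dark P815-M, dark P815-IFNG, light P815-M and light P815-IFNG, and the libraries of each neighbouring pair in this order overlapped. Scaled by exon length, H19 ranged from 0.198 to 16.8 CPM per kilobase over the 12 libraries.

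**Figure D2:**
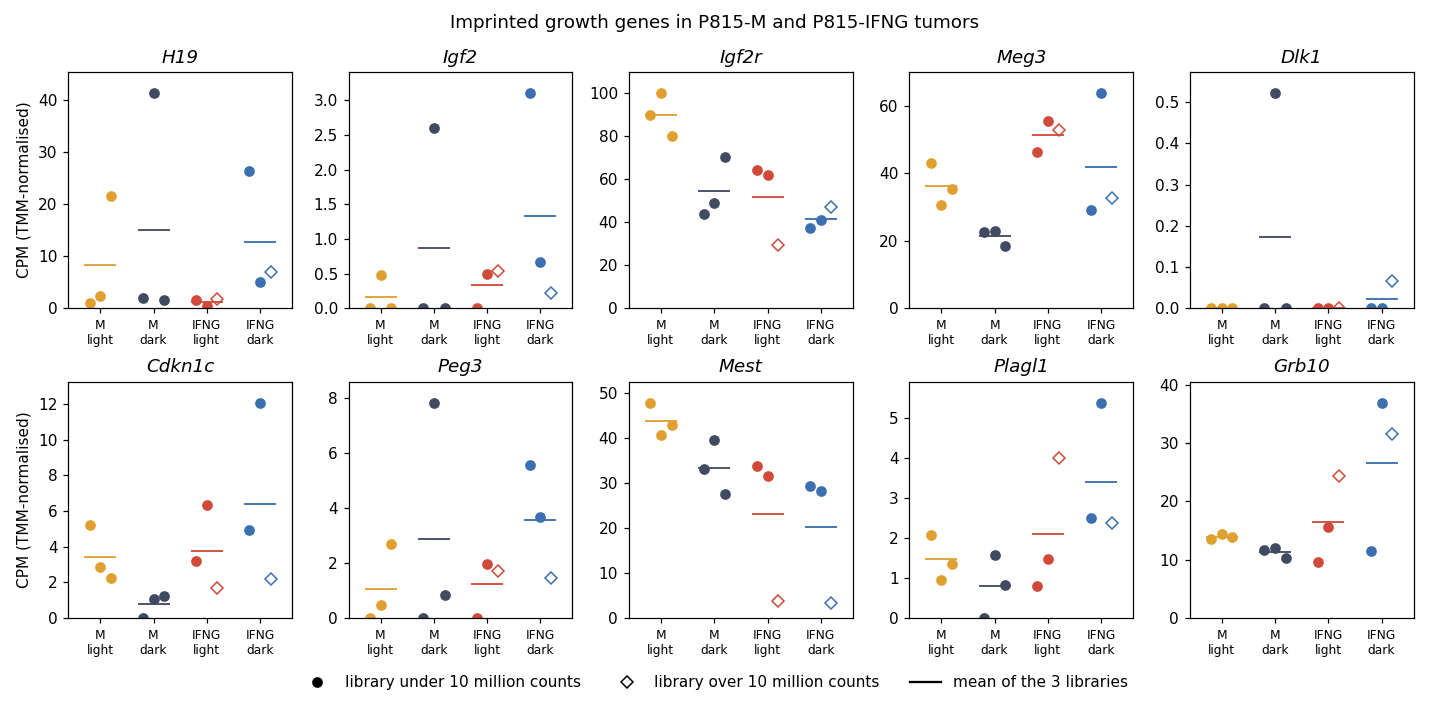
CPM of the 10 imprinted genes in light and dark P815-M (M) and P815-IFNG (IFNG) tumors, with 1 point for each library, open diamonds for the deep pair and a line at the mean of 3 libraries. H19 was above 20 CPM in P815-M light 3, P815-M dark 2 and P815-IFNG dark 1, and Mest was below 4 CPM in both deep libraries.

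The libraries that were high in H19 were high in skeletal muscle genes. The highest H19 values, in P815-M dark 2, P815-IFNG dark 1 and P815-M light 3, came from the 3 libraries that were also the highest for Acta1, skeletal muscle actin, for Des, desmin, and for Myh1 and Tnnt3, proteins of the contractile apparatus. These muscle genes were named after their values were seen, and others of the list had another order. Mb, myoglobin, was highest in P815-IFNG light 1 (54.7 CPM) and Myh4 in P815-IFNG dark 3 (22.0 CPM). The summed level of 16 skeletal muscle genes was 967, 872 and 627 CPM in the 3 libraries highest in H19 and 121 to 268 CPM in the other 9. Over the 10 libraries of similar depth, the log2 level of H19 and that of the muscle sum had a Pearson r of 0.94 and a Spearman rho of 0.75, and r was 0.86 without P815-M dark 2 and P815-IFNG dark 1, the 2 libraries farthest from the H19 median. P815-M light 3, also high in H19 and in the muscle sum, was kept in the latter r. That r can rest on this 1 library, so it does not show that the likeness holds without the high libraries. These figures describe libraries that share a sequencing kind and a tumor source, and 3 libraries held most of the spread. The 10 also include the shallow P815-IFNG libraries, on whose H19 levels the gene was picked. For that reason every r with H19, here and below, is a description and no test. The corresponding r was 0.08 for 14 fibroblast genes, 0.59 for 10 endothelial genes, 0.53 for 7 adipocyte genes, -0.21 for 10 macrophage and monocyte genes, 0.34 for 10 T cell genes, -0.16 for 12 mast cell genes and 0.16 for 12 proliferation genes.

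The muscle list moved with the comparison for which H19 was picked, and it was not the only list to do so. In P815-IFNG tumors its sum was 205, 149 and 147 CPM in light and 872, 204 and 268 CPM in dark, so that the ranges touched at 204 and 205 CPM. Of its 16 genes, 10 were lower in every light library than in every dark library, where 2.78% of all genes tested were. None was called, and the median log2 difference was -3.31 against -0.02 over all genes tested. Mb alone of the list had a fitted difference above 0, at 0.72 (standard error 1.29), or 0.88 over the 10 libraries. Acta1 had 0, 1 and 7 counts in light and 417, 45 and 785 counts in dark, which in the deep pair is a 108-fold difference in CPM. In P815-M tumors the sum was 144, 217 and 627 CPM in light and 124, 967 and 121 CPM in dark. Ckm, muscle creatine kinase and the gene of the list with the highest mean over all 12 libraries, had an r of 0.55 with H19 over the 10. Ttn, Myh4 and Mb had an r of 0.55, 0.61 and 0.27, and the rest of the list had 0.70 to 0.97. Markers of muscle precursors were near 0: Pax7 and Myf5 had no count in any library and Myod1 had 1 count in each of 2 libraries, while the sum of 8 such genes was at most 5.36 CPM. Other lists were lower in the light in P815-IFNG tumors too. Over the 10 libraries the median log2 difference was -3.13 for 7 adipocyte genes, -2.76 for 10 endothelial genes and -3.24 for the muscle list. It was -0.82 to -0.20 for the macrophage and monocyte, fibroblast, T cell, mast cell and proliferation lists, and -0.04 over all genes tested. The part of muscle or other tissue in the H19 difference was not tested.

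**Figure D3:**
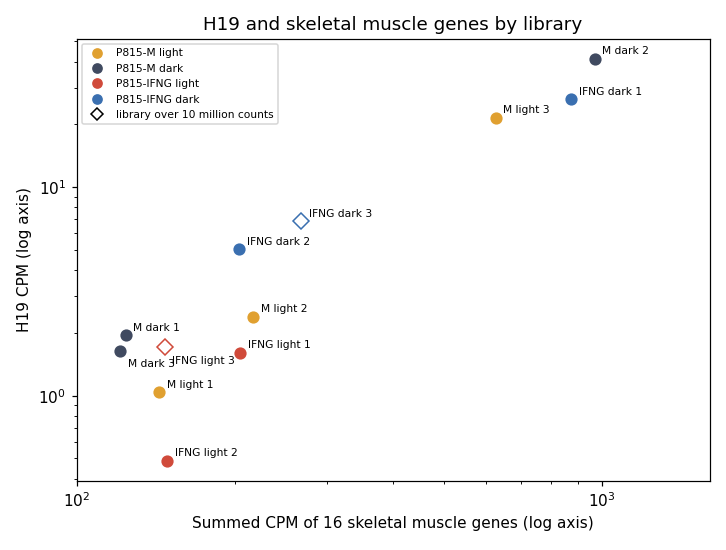
H19 CPM against the summed CPM of 16 skeletal muscle genes, both on log axes, with 1 point for each of 12 libraries coloured by group and open diamonds for the deep pair. The 3 libraries highest in muscle genes (627 to 967 CPM) are the 3 with H19 above 20 CPM, and the dark P815-IFNG libraries all lie above the light ones in H19.

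Among 11998 genes with a mean of at least 5 CPM in the 10 libraries, those whose log2 levels were most like that of H19 included Myh2 (r = 0.97), Igsf8 (0.97), Gm13601 (0.96), Xirp2 (0.95), Ube2c (0.94), 9430073C21Rik (0.94) and Gm44646 (0.93). Without the 2 libraries farthest from the H19 median these values were 0.84 to 0.95, and Spearman rho over the 10 libraries was 0.89 to 0.97. Myh2 is a fast skeletal muscle myosin, and Xirp2 is an actin-binding protein of striated muscle. Exons of each of these genes overlap those of a gene on the opposite strand, as do those of 42.7% of the genes in that pool found in the annotation. Gm13601 is antisense to Xirp2 and 9430073C21Rik to Myh2. Ube2c, a ubiquitin-conjugating enzyme of cell division, overlaps Tnnc2, the fast muscle troponin C, over 592 exon bases. Ube2c reached 946 CPM in P815-M dark 2 where Tnnc2 had 42.3 CPM, and in the deep pair it had 107 and 148 CPM. Gm44646 overlaps Mybpc2, a muscle myosin-binding protein. Medians over the 10 libraries were 0.868 CPM for Myh2, 0 for Gm13601, 0.335 for Xirp2, 0.168 for 9430073C21Rik and 1.84 for Gm44646. These rows thus reached a mean of 5 CPM only through their higher libraries, and their r can rest on those. Igsf8 and Ube2c had medians of 72.6 and 76.7 CPM. The r without 2 libraries kept the library next highest in H19, so it does not settle this.

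Igf2, which encodes the growth factor that shares its domain with H19, was scarcely detected. Its counts were 0, 1 and 23 in light P815-IFNG, 10, 2 and 10 in dark P815-IFNG, 0, 1 and 0 in light P815-M and 0, 5 and 0 in dark P815-M. The highest levels, 3.10 CPM in P815-IFNG dark 1 and 2.61 CPM in P815-M dark 2, fell in the 2 libraries highest in H19. P815-M light 3, the next in H19, had no Igf2 count. The groups overlapped, with log2 differences of light minus dark of -1.69 (standard error 1.57) in P815-IFNG (-2.82 over the 10 libraries) and -2.26 (2.04) in P815-M, and without P815-M dark 2 the latter was 3.79. In the deep pair Igf2 had 0.532 CPM in light and 0.223 CPM in dark, the opposite order to H19.

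Igf2r had the highest mean level of the 10 in the shallow libraries, at 63.7 CPM. It had 89.97, 100.0 and 80.0 CPM in light P815-M tumors and 43.7, 49.0 and 70.3 CPM in dark ones. Every light value lay above every dark value, with a log2 difference of 0.73 (standard error 0.33) and p = 0.1 in the exact permutation test. Any full separation of 3 against 3 libraries gives this p, here and for the members below, so it adds nothing to the separation. Adjusted over the 10 members, the permutation p was 0.2 for each of them. In P815-IFNG tumors the values were 64.3, 61.9 and 29.2 CPM in light and 37.2, 40.9 and 47.0 CPM in dark. The 2 shallow light libraries were above all dark libraries, and the deep light library was below them, so that the log2 difference was 0.31 (0.33) over all libraries and 0.68 over the 10. The deep pair alone had the opposite direction, with the dark library 1.61 times higher.

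Meg3 had 43.2, 30.6 and 35.3 CPM in light P815-M tumors and 22.6, 23.0 and 18.5 CPM in dark ones. The light values were all higher, with a log2 difference of 0.77 (standard error 0.32) and an exact permutation p of 0.1. In P815-IFNG tumors Meg3 had 46.2, 55.6 and 52.7 CPM in light and 29.2, 63.7 and 32.8 CPM in dark, and the groups overlapped through P815-IFNG dark 2. Its log2 difference there was 0.30 (0.32), or 0.12 over the 10 libraries, and in the deep pair the light library had 52.7 CPM against 32.8 CPM. Dlk1, its protein-coding neighbour, had 3 counts in P815-IFNG dark 3, 1 count in P815-M dark 2 and none in the other 10 libraries. At this depth a Dlk1 level below 0.930 to 1.56 CPM could not be detected in a shallow library. Rian, a noncoding RNA from the same cluster, had 2.09 to 17.4 CPM in the 10 libraries and 32.0 and 32.3 CPM in the deep pair.

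Cdkn1c, the cell cycle inhibitor, had 5.20, 2.87 and 2.23 CPM in light P815-M tumors (10, 6 and 5 counts) and 0, 1.04 and 1.23 CPM in dark ones (0, 2 and 3 counts). All light values were above all dark values, but every dark library was at or below the floor of 3 counts. The log2 difference was 2.19 (standard error 1.04) with an exact permutation p of 0.1. Gm44732, its antisense partner, had 30.2, 39.7 and 13.4 CPM in light P815-M and 9.75, 29.2 and 13.6 CPM in dark, and its groups overlapped. In P815-IFNG tumors Cdkn1c had 3.22, 6.33 and 1.67 CPM in light and 4.96, 12.1 and 2.16 CPM in dark, with a log2 difference of -0.80 (0.87), or -0.85 over the 10 libraries.

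Grb10, an adaptor that dampens insulin and IGF receptor signalling, varied little in control tumors, with 13.5, 14.4 and 13.9 CPM in light and 11.7, 12.0 and 10.3 CPM in dark. The groups were apart by a log2 difference of 0.30 (standard error 0.46), with an exact permutation p of 0.1. In P815-IFNG tumors it had 9.65, 15.6 and 24.3 CPM in light and 11.5, 36.9 and 31.6 CPM in dark, which overlapped with a log2 difference of -0.67 (0.44), or -0.96 over the 10 libraries. Plagl1 had 2 to 4 counts in light P815-M libraries and 0 to 3 in dark ones, so that it was near the floor throughout that line. In P815-IFNG tumors its levels were 0.804, 1.46 and 3.98 CPM in light and 2.48, 5.36 and 2.36 CPM in dark. Its log2 difference of light minus dark was 0.92 (1.05) in P815-M and -0.58 (0.87) in P815-IFNG, and was -1.78 in the latter over the 10 libraries.

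Peg3 had 0, 0.478 and 2.68 CPM in light P815-M tumors and 0, 7.82 and 0.822 CPM in dark ones. In P815-IFNG tumors it had 0, 1.95 and 1.71 CPM in light and 5.58, 3.69 and 1.45 CPM in dark. Both pairs of groups overlapped, with log2 differences of -1.36 (standard error 1.53) in P815-M, which was 1.38 without P815-M dark 2, and of -1.45 (1.41) in P815-IFNG, which was -2.30 over the 10 libraries. The 2 highest Peg3 libraries were the 2 highest for H19. Over the 10 libraries its log2 level had an r of 0.72 with that of H19, and 0.47 without those 2 libraries.

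Mest had 47.8, 40.7 and 42.9 CPM in light P815-M tumors and 33.1, 39.6 and 27.6 CPM in dark ones. The light values were all higher, by a log2 difference of 0.39 (standard error 0.78), and the exact permutation p was 0.1. In P815-IFNG tumors the shallow libraries had 33.8 and 31.7 CPM in light and 29.5 and 28.2 CPM in dark, and the deep libraries 3.82 and 3.39 CPM. The log2 difference there was 0.18 (0.79), also 0.18 over the 10 libraries, and both deep libraries lay far below the shallow ones of their group.

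Across the members, light against dark in P815-M tumors gave 5 of 9 tested genes with every light library higher (Igf2r, Meg3, Cdkn1c, Mest and Grb10) and none with every light library lower, where 10.1% of all genes tested were higher and 8.06% lower in this way. None of the 9 was called by edgeR's quasi-likelihood test, for which a call needed an adjusted p of at most 0.05 and a log2 difference of at least 1 in size, against 0% of all genes. Igf2r and Meg3 had an unadjusted p under 0.05 in edgeR, as did 2.72% of all genes, and in DESeq2, which called none either, Cdkn1c alone did. Other gene groups were apart in the same libraries: 7 of 10 macrophage and monocyte genes were higher in every light library, with a list sum of 1701 to 1967 CPM in light and 774 to 1101 CPM in dark. Among 14 fibroblast genes 6 were higher in this way, with sums of 5704 to 6678 CPM in light and 5638 to 6209 CPM in dark, while 8 of 12 proliferation genes were lower in every light library. None of these list genes was called, and their part in the members' differences was not tested.

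In P815-IFNG tumors H19 had light and dark libraries apart, which is what it was picked for. The other 8 tested members overlapped, where 2.78% of all genes were lower and 0.979% higher in every light library. None of the 8 was called by edgeR or DESeq2, against 0% of all genes in edgeR. Over all 12 libraries none of these 8 had an unadjusted p under 0.05 in either tool, where 2.17% of all genes did in edgeR. Over the 10 libraries alone, Igf2r and Grb10 had an unadjusted p under 0.05 in edgeR, and none of the 8 was called. Whether light acted differently in P815-IFNG and P815-M was tested as an interaction, which shares all 12 libraries with the comparisons above, and edgeR called none of the members other than H19, which was left out, and 0% of all genes. Over all 12 libraries only Cdkn1c of these had an unadjusted p under 0.05 there, in edgeR (1.67% of all genes) as in DESeq2. Its log2 difference, light minus dark in P815-IFNG minus the same in P815-M, was -2.99 (standard error 1.35, and -2.98 over the 10 libraries). Over the 10 libraries Grb10 also had an unadjusted p under 0.05 there in edgeR, at a log2 difference of -1.24.

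**Figure D4:**
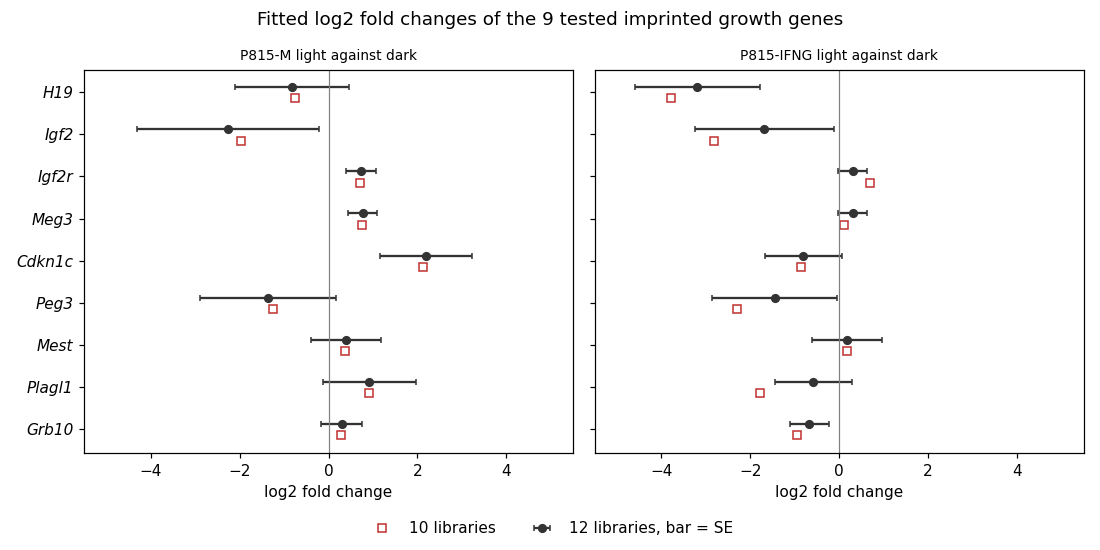
Fitted log2 differences of light minus dark for the 9 tested imprinted genes in P815-M (left) and P815-IFNG (right). Black circles with bars are estimates with standard errors from 12 libraries and open squares are estimates from the 10 libraries of under 10000000 counts; H19 in P815-IFNG stood at -3.19 and -3.79, and none of the other 8 genes was called.

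Engineered and control tumors were then set side by side within each lighting condition, with the same 12 libraries as above. In the dark, Meg3, Cdkn1c and Plagl1 were higher in every P815-IFNG library than in every P815-M library, where 10.9% of all genes were. The log2 differences, P815-IFNG minus P815-M, were 0.97 (standard error 0.32) for Meg3, 3.06 (1.02) for Cdkn1c and 2.12 (1.00) for Plagl1, which had 2.32 over the 10 libraries. Grb10 overlapped at 1.24 (0.45), or 1.09 over the 10. The median over all genes tested was 0.33 here and 0.15 in the light, and 0.05 and -0.001 over the 10 libraries. None of the 4 was called by edgeR (adjusted p of 0.604 for each) or by DESeq2, against 0.0106% of all genes in edgeR, and 3 had an unadjusted p under 0.05 in edgeR (6.85% of all genes) and 4 in DESeq2. No member had all P815-IFNG libraries lower, where 10.3% of all genes did.

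Over the 10 libraries alone, where dark P815-IFNG tumors keep 2 libraries, Meg3 and Cdkn1c passed the threshold in this comparison. Meg3 was higher by 1.12 on the log2 scale (edgeR adjusted p = 0.0475, between 0.0284 and 0.807 over all alternatives tried) and Cdkn1c by 3.45 (edgeR adjusted p = 0.0295, between 0.00396 and 0.807). In that fit 1.6% of all genes were called higher. The dark P815-M libraries held 5 Cdkn1c counts in total, and each was at or below the floor of 3 counts. P815-IFNG dark 2 had the highest level of Meg3, Cdkn1c, Plagl1 and Grb10 among all libraries, and also the highest sum of the 14 fibroblast genes, 13789 CPM against 4012 to 6868 CPM in the other 11. Of the 14 fibroblast genes, 6 were higher in every dark P815-IFNG than dark P815-M library, where 10.9% of all genes were. The part of stromal cells was not tested. Gm44732 had 27.6 and 54.0 CPM in the 2 shallow dark P815-IFNG libraries and 9.75 to 29.2 CPM in dark P815-M.

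In the light, Meg3 was higher in every P815-IFNG library (9.18% of all genes), and Igf2r and Mest were lower in every one (7.72%). Meg3 differed by 0.50 (standard error 0.32) on the log2 scale (0.49 over the 10 libraries), Igf2r by -0.80 (0.33) and Mest by -0.95 (0.79). The Mest value was -0.41 and the Igf2r value -0.50 over the 10 libraries, since the deep library was the lowest of the P815-IFNG group for both. None of the 3 was called by edgeR (0.016% of all genes) or by DESeq2, and Igf2r alone among them had an unadjusted p under 0.05 in edgeR (6.8% of all genes) and in DESeq2.

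Compared per kilobase of exon, the order among the members depended on the kind of library. In the 10 libraries Mest had 6.98 to 12.1 CPM per kilobase and Igf2r 3.998 to 10.7, against 1.02 to 3.52 for Meg3 and 1.06 to 4.06 for Grb10. In the deep pair Mest had 0.860 and 0.968 CPM per kilobase, below Igf2r (3.14 and 5.05), Meg3 (1.81 and 2.91) and Grb10 (2.67 and 3.47). Within P815-IFNG tumors, the line of both deep libraries, mean CPM of Grb10 and Plagl1 was 1.52 and 1.25 times higher in the deep pair than in the 4 shallow libraries. Igf2r, Cdkn1c and Mest had 1.34, 3.47 and 8.54 times more in the 4 shallow libraries. Igf2, Dlk1, Peg3 and Plagl1 stayed below 1 CPM per kilobase in every library.

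Of the wider imprinted set, 56 further genes were present and 42 were tested, and none was called in any comparison by edgeR, with 1 to 5 at an unadjusted p under 0.05. Light against dark in P815-M tumors left 5 of these 42 genes higher and 2 lower in every light library, beside 10.1% and 8.06% of all genes. Dcn, the matrix proteoglycan decorin and a product of fibroblasts, had a mean of 93.0 CPM in light and 47.4 CPM in dark P815-M tumors (log2 difference 0.97, standard error 0.46). It was higher again in dark P815-IFNG than in dark P815-M tumors, at 135 against 47.4 CPM (1.51, 0.47; 1.30 over the 10 libraries). Gab1, a docking protein of growth factor receptors, had 8.41 CPM in light and 4.08 CPM in dark P815-M tumors (1.05, 0.65), and H13, a signal peptide peptidase, 54.9 and 61.4 CPM (-0.16, 0.57). Copg2, the partner of Mest, had 25.6 CPM in light and 47.7 CPM in dark P815-IFNG tumors (-0.89, 0.35; -1.29 over the 10 libraries), and it was lower in light P815-IFNG than in light P815-M tumors (-0.93, 0.36; -1.18 over the 10). Commd1 was lower in P815-IFNG tumors in both conditions, at -0.98 (0.40) in the light and -1.13 (0.40) in the dark, or -0.66 and -0.93 over the 10 libraries. Trappc9 in the light (0.58, 0.32; 0.63 over the 10) and H13 in the dark (0.92, 0.57; 0.15 over the 10) were higher in every P815-IFNG library. H13 had 70.4 and 65.7 CPM in the shallow and 213 CPM in the deep dark P815-IFNG library, against 60.5 to 62.1 CPM in dark P815-M.

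Of 22 listed genes that carry the IGF signal, 19 were tested, and none was called in any comparison by edgeR, with at most 2 at an unadjusted p under 0.05. In P815-M tumors 2 of the 19 were higher and 2 lower in every light library, beside 10.1% and 8.06% of all genes. Igfbp5, an IGF-binding protein of stromal and muscle cells, had 142 CPM in light and 39.3 CPM in dark P815-M tumors (log2 difference 1.85, standard error 0.59). Igfbp6 lay in the same direction at 69.2 and 40.0 CPM (0.79, 0.41) and Igfbp3 in the other at 6.16 and 17.6 CPM (-1.51, 0.81). Akt1, a kinase downstream of the receptors, was lower in every light than dark P815-IFNG library (-0.40, 0.26; -0.24 over the 10) and in every light P815-IFNG than P815-M library (-0.15, 0.26; -0.09 over the 10). Pik3r1, a regulatory subunit of PI3-kinase, was higher in P815-IFNG than P815-M tumors in the light (0.70, 0.28; 0.48 over the 10) and in the dark (0.81, 0.28; 0.60 over the 10), and Igf2bp2, an RNA-binding protein, in the dark (1.17, 0.46; 0.86 over the 10). Igf1 had 12.1 to 46.4 CPM in the 10 libraries and 98.3 and 119 CPM in the deep pair.

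Of 15 factors that set or keep imprints, all were tested and none was called by edgeR, with at most 2 at an unadjusted p under 0.05. In P815-M tumors 4 of the 15 were lower in every light library, where 8.06% of all genes and 8 of the 12 proliferation genes were, among them Trim28, a corepressor (log2 difference -0.42, standard error 0.28), Dnmt1, the maintenance DNA methyltransferase (-0.37, 0.31), and Uhrf1, its partner (-0.33, 0.60). In the light 5 were higher in every P815-IFNG than P815-M library (9.18% of all genes), among them Smchd1, a chromatin protein (1.29, 0.60), Arid4a (1.01, 0.37) and Dnmt3b, a de novo DNA methyltransferase (0.83, 0.68). Over the 10 libraries these differences were 0.25, 0.61 and 0.57, and Smchd1 had 23.7 and 30.2 CPM in the shallow and 111 CPM in the deep light P815-IFNG library against 21.8 to 23.2 CPM in light P815-M. In the dark Smchd1 (1.17, 0.59; 0.37 over the 10) and Zfp445, a zinc finger protein of imprint maintenance (1.08, 0.45; 0.76 over the 10), were higher in every P815-IFNG library. The median difference of these 15 genes between the lines was 0.57 in the light and 0.56 in the dark, against 0.15 and 0.33 over all genes tested, and over the 10 libraries it was 0.24 and 0.26, against -0.001 and 0.05.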

How the data were processed

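The deposited files were count tables made by the authors, 1 for each of 12 libraries, and each value was a raw read count per gene. Per the labels, reads came from the TruSeq Stranded mRNA LT kit, and the submitters' processing notes name STAR 2.7.9a, HTSeq 0.13.5 and DESeq2 1.32.0 with mm10. Replicates were separate mice. After removal of 13 mitochondrial rows, the 18804 genes whose counts summed to 10 or more were tested. All 12 libraries were fitted with edgeR 4.0.16 in R 4.3.3 (quasi-likelihood, TMM scaling, 1 mean for each of the 4 groups, Benjamini-Hochberg adjustment over all genes tested), and a gene was called at an adjusted p of 0.05 or less together with a log2 fold change of 1 or more in either direction. The scripts were tested on simulated data. The 10 members, the gene lists and the tests were chosen with earlier results of these data known.

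Named genes were the members, list genes that were called (there were none), for the imprinted, IGF and imprint factor lists up to 3 genes in each comparison with the largest fold change among those without overlap between groups and at least 5 CPM in the higher group, the 8 genes most like H19 (Pearson r of log2 CPM, prior count 2; 1 of them is not reported here), the most abundant marker of each list, and genes whose exons overlap a member. Acta1, Des, Myh1, Tnnt3, Mb, Myh4, Ttn, the muscle precursor genes, Rian, Igf1 and the neighbours of the genes most like H19 were named after their values were seen.

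Alternatives were DESeq2 1.42.0, its size factors in edgeR, no filter, filterByExpr, the 10 libraries of under 10000000 counts alone, a term for the deep pair, ComBat-seq of sva 3.50.0, the replicate number as a block and each library left out. Deviations from the group means correlated between light and dark P815-IFNG libraries of the same number (0.58, 0.58 and 0.87). The third number is the deep library of each group, the labels do not tie numbers to a shared litter or day, and light 1 and dark 2 also correlated (0.57). In the other comparisons at least 1 correlation was below 0.1.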

Additional observations from a re-analysis of the deposited data

How the results depend on the processing

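Of 26 member fold changes given above, 513 values were recomputed under 20 alternatives, and 506 kept their sign. The other 7 came from leaving out 1 library: in P815-M, light minus dark, H19 ranged from -3.09 to 2.21, Igf2 from -6.05 to 3.79 and Peg3 from -3.44 to 1.38, and in P815-IFNG Cdkn1c ranged from -1.42 to 0.051 and Mest from -0.38 to 0.72. The P815-M reversals all came without P815-M dark 2. Of the 506 values that kept their sign, 305 also came from leaving out 1 library. In many of these the library lay outside the comparison concerned, where the sign could hardly change. The 26 fold changes include that of H19 in P815-IFNG, which was picked for its direction. No member was called with any library left out. For light against dark in P815-IFNG, ComBat-seq put 1 member past the threshold, H19, which was picked on these values, so this is no test of it. In P815-IFNG against P815-M in the dark, 2 members were called over the 10 libraries (Meg3 and Cdkn1c), 1 with a term for the deep pair (Cdkn1c) and 2 after ComBat-seq (Meg3 and Cdkn1c).

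Counts of all genes called depended on how the deep pair was handled. For P815-M light against dark, edgeR called 0, DESeq2 1, the 10 libraries 157, the deep-pair term 194 and ComBat-seq 249. For P815-IFNG light against dark the counts were 0, 6, 1, 2 and 166 in the same order, for the lines in the light 3, 43, 39, 82 and 263 (1 to 4 with each library left out), for the lines in the dark 2, 38, 371, 289 and 545 (1 to 6), and for the difference between the lines 0, 5, 2, 3 and 41. In the dark, DESeq2 size factors and filterByExpr each gave 4. The replicate block gave 7 genes in the dark comparison and changed no call of a member, and it gave 0 genes for light against dark in P815-IFNG, where the numbers correlated. Which of these differences comes from depth and which from strand was not tested. Depth limits H19, Igf2, Dlk1, Cdkn1c, Peg3 and Plagl1 most, since many of their shallow libraries hold 5 counts or fewer.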

Other observations

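A further 3 genes linked to imprinting or the IGF system differed between the 2 kinds of library by as much as Mest. Nnat, an imprinted neuronal proteolipid, had 49.9 to 129 CPM in the 10 libraries and 3.30 and 8.12 CPM in the deep pair. Rtl1, an imprinted gene of the Meg3 cluster that is crossed by microRNAs on the opposite strand, had 1.56 to 6.78 CPM in the 10 libraries and 0.139 and 0.402 CPM in the deep pair. Igf2bp3, an RNA-binding protein, had 26.9 to 57.0 CPM in the 10 libraries and 3.26 and 3.61 CPM in the deep pair, while Malsu1, with which it shares 1529 exon bases on the opposite strand, had 8.05 to 22.9 CPM in the 10 and 36.7 and 38.1 CPM in the deep pair. These genes were chosen after their values were seen.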
